A study of Bos taurus with 24 samples.

Results

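The 9 mature miRNAs described here are those that the deposited table lists from a pair of related bovine miRNA clusters. Of these, 6 come from the miR-17-92 cluster (bta-miR-17-5p, bta-miR-18a, bta-miR-19a, bta-miR-20a, bta-miR-19b and bta-miR-92a) and 3 from the miR-106b-25 cluster (bta-miR-106b, bta-miR-93 and bta-miR-25). The prefix bta, for Bos taurus, is left out below. They were chosen by name, as members of the clusters, among the 870 miRNAs in the table, and all 9 were among the 181 that passed the limit on low levels and were tested. The samples were EDTA plasma of 8 Holstein-Friesian heifers (Bos taurus, female), each bled at oestrus (Day 0) and again on Days 8 and 16 of the oestrous cycle, which gave 24 small-RNA libraries, 8 for each day. All heifers had been brought into oestrus by the same treatment (an intravaginal progesterone insert, the GnRH analogue buserelin and the prostaglandin analogue cloprostenol), so every day shares it and no untreated animals were compared. Plasma carries RNA from many tissues and from blood cells that break before or during collection, so a level in plasma names no tissue of origin, and release by more cells cannot be told apart from more RNA released per cell. The paper reports a control for haemolysis, by absorbance and a ratio of miRNA levels. It also reports a further centrifugation against platelets and debris.

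A miRNA is cut from a hairpin in a longer primary transcript, and a cluster is a set of hairpins cut from the same transcript. The mature strand recognises mRNAs mainly through its seed, the stretch of bases 2 to 8 from its 5′ end, so miRNAs with the same seed are grouped in a family with largely shared targets. The miR-17-92 cluster is known in human and mouse as a MYC-activated cluster that promotes proliferation and survival, with the pro-apoptotic BIM among its targets. The miR-106b-25 cluster is its paralogue and lies in an intron of MCM7, a gene for a subunit of the DNA replication helicase. In mice, miR-17-5p has been tied to blood vessel growth in the corpus luteum, the gland that secretes progesterone after ovulation.

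The sequences are shown because the levels below are read by seed family and because near-identical members may exchange reads. They are DNA letters, 5′ to 3′, read from the supplementary isomiR table of the study, and capitals mark the seed. No sequence was found for miR-18a in the files, so none is printed.
miR-17-5p: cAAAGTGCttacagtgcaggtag
miR-20a: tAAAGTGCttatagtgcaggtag
miR-106b: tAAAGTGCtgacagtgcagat
miR-93: cAAAGTGCtgttcgtgcaggta
miR-19a: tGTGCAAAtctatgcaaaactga
miR-19b: tGTGCAAAtccatgcaaaactga
miR-92a: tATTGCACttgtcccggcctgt
miR-25: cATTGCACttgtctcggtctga

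The sequence of miR-17-5p is a listed 3′ variant, since its exact form was not in that table. Each of the seeds AAAGTGC and ATTGCAC occurs in both clusters, while GTGCAAA occurs among the members only in miR-19a and miR-19b of miR-17-92. Of the 181 tested miRNAs, 115 had a sequence in that table, and among these the seed AAAGTGC was held by these 4 members alone, GTGCAAA by these 2, and ATTGCAC by miR-92a, miR-25 and 1 miRNA of neither cluster, miR-92b. Counting positions from 1 at the 5′ end, miR-19a and miR-19b differed at 1 base (T11C, from miR-19a to miR-19b). Likewise miR-17-5p and miR-20a differed at 2 bases (C1T and C12T, from miR-17-5p to miR-20a), and miR-92a and miR-25 at 4. The authors allowed 1 mismatch when they assigned reads, so reads of miR-19a and miR-19b could pass between them, and the values of this pair are uncertain to that extent. Such differences were counted only among the members with a sequence, so miR-18a and miRNAs outside the clusters were not compared.

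The deposited table gives positions but names no genome build. It places 5 of the 6 miR-17-92 members on the plus strand of chromosome 12 within 757 bases, from miR-17-5p at 64665115 to 64665138 through miR-18a at 64665250 to 64665271, miR-19a at 64665432 to 64665454 and miR-19b at 64665734 to 64665756 to miR-92a at 64665850 to 64665871. It lists miR-20a apart from them, on the minus strand of chromosome 11 at 3052129 to 3052151. RefSeq's annotation of the later ARS-UCD2.0 assembly has its gene on chromosome 12 between those of miR-19a and miR-19b, which is the place used here for the order along the cluster. The miR-106b-25 members lie on the plus strand of chromosome 25 within 465 bases, with miR-106b at 38455583 to 38455603, miR-93 at 38455785 to 38455806 and miR-25 at 38456026 to 38456047. RefSeq puts their genes inside MCM7. RefSeq also has further gene copies for miR-19b and miR-92a on the X chromosome, in a further related cluster, and a mature read cannot be assigned to either copy.

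Levels are given as RPMM, the number of reads of a miRNA per 1000000 reads of its library that mapped to the genome, as deposited by the authors. Total miRNA counts per library ran from 1299679 to 4700764. Together the members took 5.79% ± 0.945 of all miRNA counts (SD, n = 24 libraries), with day means of 5.83% ± 1.27, 5.65% ± 0.829 and 5.90% ± 0.775 for Days 0, 8 and 16 (SD, n = 8 each). Nearly all of it came from the members with the seed ATTGCAC. miR-92a made up 61.4% and miR-25 29.0% of the members' counts, 90.4% together. The miR-17-92 cluster took 3.74% ± 0.780 of all miRNA counts and the miR-106b-25 cluster 2.05% ± 0.397 (SD, n = 24). In the share of miR-17-92, reads of miR-19b and miR-92a that come from their X chromosome copies cannot be told apart.

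**Figure D1:**
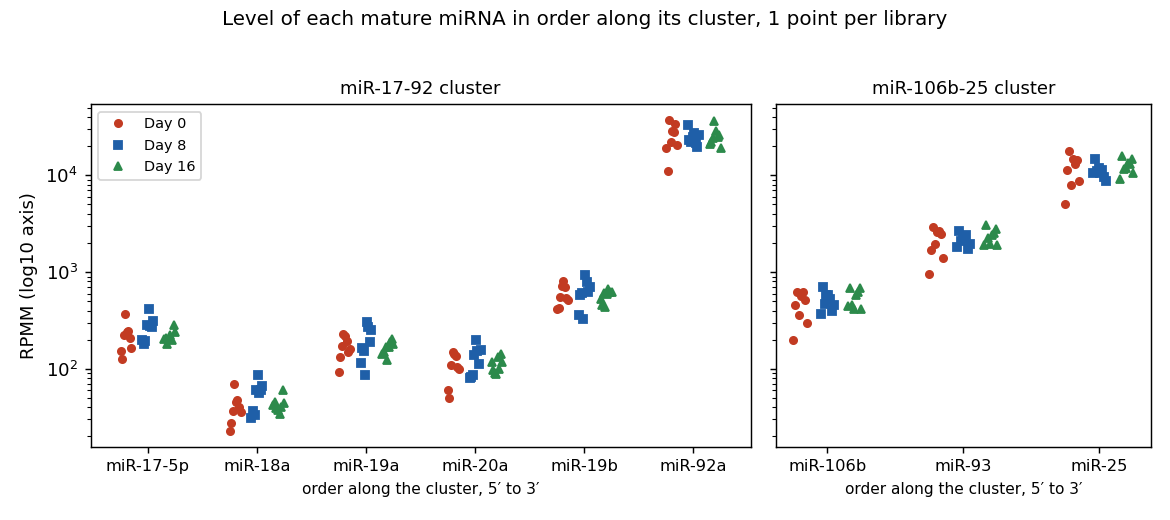
RPMM of each member on a log10 axis, in the order of the hairpins along each cluster, with 1 point for each of the 24 libraries and colour and shape by day. In both clusters the last member is the most abundant, miR-92a with a median of 24616 RPMM and miR-25 with 11593 RPMM, and the lowest, miR-18a, has a median of 41.3 RPMM.

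miR-92a, the last hairpin of miR-17-92 and a regulator of blood vessel growth in mice, ranked 6th of the 870 miRNAs by mean level, with 11157 RPMM in the lowest library, a median of 24616 and 37357 in the highest. miR-25, its seed partner in the other cluster, ranked 11th, with 5078, 11593 and 17832 RPMM. miR-93, a member of the seed family of miR-17-5p, had 962, 2270 and 3068 RPMM. These 3 were above every other member in all 24 libraries.

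miR-19b, the more abundant member of the miR-19 pair, had a lowest value of 328, a median of 600 and a highest value of 925 RPMM. miR-106b had 196, 493 and 698 RPMM, and miR-17-5p 128, 218 and 416 RPMM. The lowest 3 were miR-19a with 87.4, 169 and 304 RPMM, miR-20a with 49.6, 111 and 200 RPMM and miR-18a with 22.6, 41.3 and 85.8 RPMM. miR-18a rested on 56 to 368 counts per library, so that counting error alone gave it a spread of up to 0.19 on the log2 scale, against 0.0073 or less for miR-92a. Within miR-17-92 the medians therefore ran from 41.3 to 24616 RPMM, although its hairpins belong to the same transcript. Reads of miR-92a and miR-19b may also come from their gene copies on the X chromosome, so their levels cannot be credited to this transcript alone. The other members of this cluster had medians of 41.3 to 218 RPMM.

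The order of the levels was tested between neighbours, on the mean log2 RPMM over the 3 days of each heifer, with a two-sided exact sign-change permutation test over the 8 heifers, for which 0.0078 is the smallest possible p. The order was taken from these same values. The p-values therefore describe how steady it was over the heifers and are no independent support for it. Over the 8 neighbouring pairs, 7 differed in the same direction in 8 of 8 heifers, each with an adjusted p of 0.0089. miR-92a was 2.14-fold above miR-25, miR-25 was 5.35-fold above miR-93, and miR-93 was 3.73-fold above miR-19b. miR-106b was 2.14-fold above miR-17-5p, miR-17-5p 1.35-fold above miR-19a, miR-19a 1.54-fold above miR-20a and miR-20a 2.50-fold above miR-18a. The exception was miR-19b, 1.18-fold above miR-106b and higher in 7 of 8 heifers (adjusted p = 0.0625 in the same exact test). Without heifer 18 the adjusted p of this pair was 0.0156 in that test. With any single heifer left out, miR-19b stayed above miR-106b on average, by 0.18 to 0.32 on the log2 scale. Such comparisons are of reads, and differences in how well each sequence is ligated and amplified were not tested.

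The question of the study was how plasma miRNAs differ between oestrus and the luteal days, when the corpus luteum secretes progesterone. Counts were scaled by TMM, a normalization that assumes most miRNAs do not differ between libraries, and compared with edgeR's quasi-likelihood test with a term for the heifer. Benjamini-Hochberg adjustment ran over all 181 tested miRNAs, with the study's threshold of 0.1. No member passed it in any comparison. Between Days 8 and 0, 0 of 9 members passed, where 1.1% of all tested miRNAs did, and 1 member had an unadjusted p under 0.05, where 14.4% of all did. Between Days 16 and 0, 0 of 9 passed against 0% of all, and 1 member had an unadjusted p under 0.05 against 14.4% of all. Between Days 16 and 8, 0 of 9 passed against 0% of all, and 0 had an unadjusted p under 0.05 against 3.87% of all. For any effect of day, 0 of 9 passed against 0% of all, and 0 had an unadjusted p under 0.05 against 12.7% of all. DESeq2 and limma likewise called 0 of 9 in each comparison, and the smallest adjusted p of a member over all 20 alternatives was 0.106, for miR-18a between Days 8 and 0 without heifer 21.

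**Figure D2:**
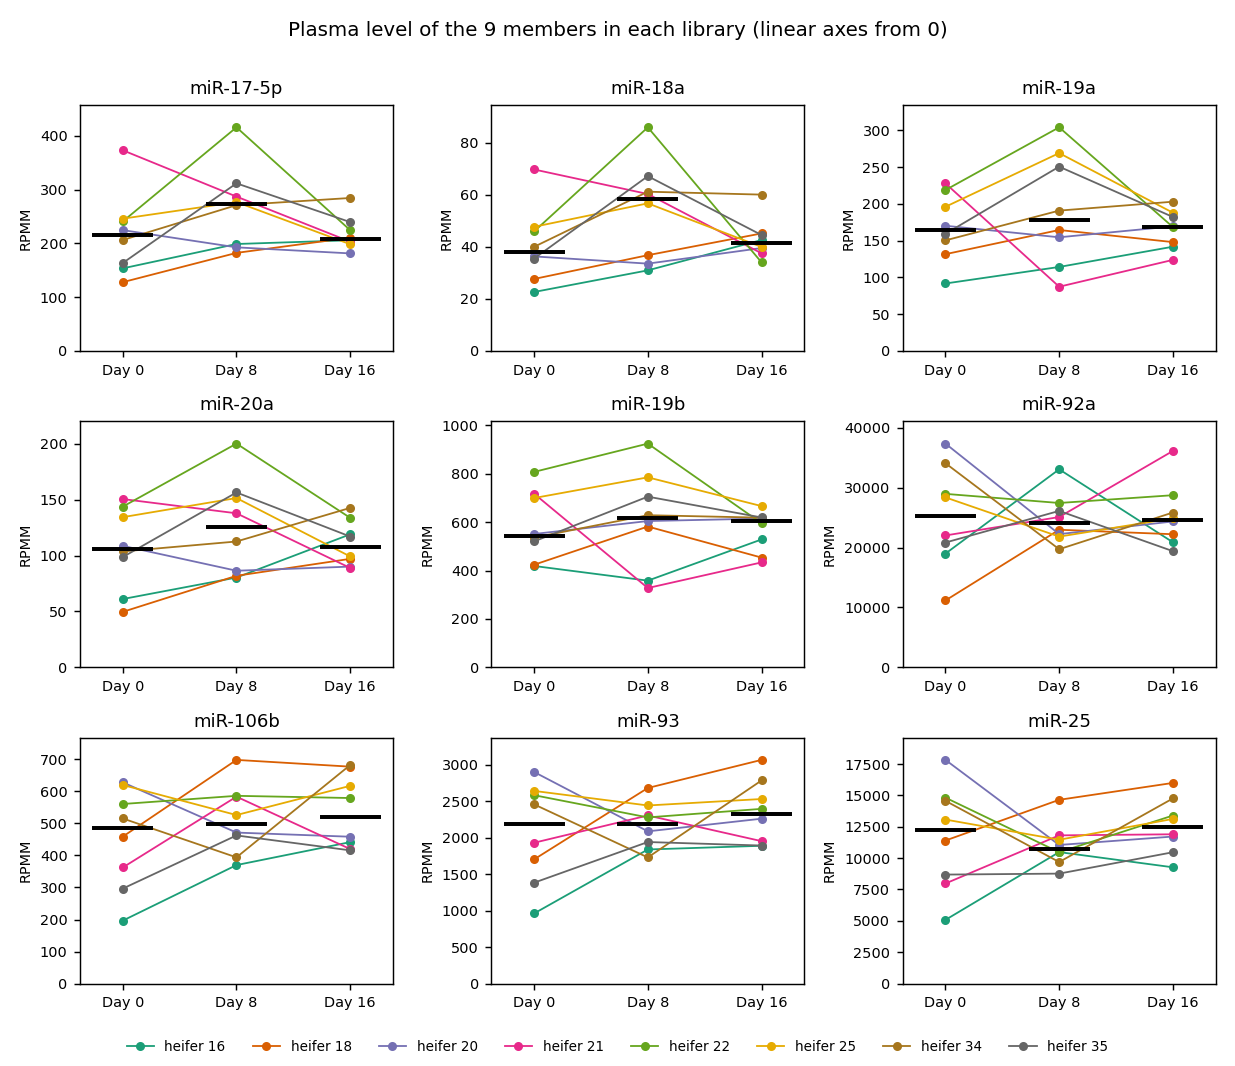
RPMM of the 9 members on Days 0, 8 and 16, a panel for each on a linear axis from 0, with coloured lines joining the 3 libraries of each of the 8 heifers and black bars at the median of a day. For every member the ranges of the 3 days overlap, and the lines of single heifers run in both directions.

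miR-18a was the member with the smallest unadjusted p between Days 8 and 0. It had 22.6, 27.6, 36.3, 69.7, 45.9, 47.7, 39.98 and 35.5 RPMM on Day 0 in heifers 16, 18, 20, 21, 22, 25, 34 and 35, in that order. In the same order it had 30.9, 36.8, 33.5, 60.2, 85.8, 56.7, 61.1 and 67.1 RPMM on Day 8. On Day 16 it had 42.6, 45.1, 39.5, 37.5, 34.0, 39.9, 60.0 and 44.5 RPMM. The days overlapped: Day 8 was above Day 0 in 6 of 8 heifers and below it in heifers 20 and 21, and the value of heifer 21 on Day 0 exceeded 7 of the 8 Day 8 values. By edgeR's test Day 8 was 1.28-fold above Day 0 (log2 fold change 0.36 ± 0.16 SE, 95% interval 0.03 to 0.69, adjusted p = 0.244).

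miR-106b was the member with the smallest unadjusted p between Days 16 and 0. On Day 0 it had 196, 459, 628, 362, 561, 620, 515 and 297 RPMM in heifers 16, 18, 20, 21, 22, 25, 34 and 35. On Day 16 it had 442, 677, 458, 420, 579, 617, 682 and 416 RPMM in the same order. The lowest values on Day 0, those of heifers 16, 35 and 21, were below all Day 16 values, while the Day 0 value of heifer 20 was above 6 of the 8 Day 16 values. Day 16 was 1.32-fold above Day 0 (log2 0.40 ± 0.18 SE, 95% interval 0.02 to 0.78, adjusted p = 0.340 by edgeR), higher in 7 of 8 heifers on the TMM scale and in 6 of 8 by RPMM.

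The other members of miR-106b-25 lay in the same direction between Days 16 and 0. miR-93 had a log2 fold change of 0.34 ± 0.18 SE (adjusted p = 0.375, edgeR) and was higher in 7 of 8 heifers on the TMM scale and in 5 of 8 by RPMM. miR-25 had 0.27 ± 0.21 SE (adjusted p = 0.528, edgeR) and was higher in 6 of 8 heifers on either scale. Between Days 16 and 8, miR-25 had the greater value on Day 16 in 7 of 8 heifers (0.34 ± 0.21 SE, adjusted p = 0.807, edgeR), with 0.51 when heifer 16 was left out. In all 3, heifer 16 had the lowest Day 0 value, and without heifer 16 the log2 fold changes between Days 16 and 0 were 0.33 for miR-106b, 0.29 for miR-93 and 0.23 for miR-25. Other heifers moved miR-25 too, which had 0.15 without heifer 21 and 0.44 without heifer 20, and without heifer 20 miR-106b had 0.56 and miR-93 0.48. The summed level of erythrocyte markers had its highest median on Day 16 as well, with ranges of the days that overlapped, and none of the markers passed the threshold between Days 16 and 0 (adjusted p of 0.340 to 0.685, edgeR). These 5 markers (miR-486, miR-451, miR-144, miR-16b and miR-15a), none of them at 0 in any library, had a summed level of 37714 to 355848 RPMM on Day 0 (median 150844), 68648 to 285641 on Day 8 (median 131397) and 102310 to 390440 on Day 16 (median 224987). Most of this sum was miR-486, with medians of 133231, 110235 and 203406 RPMM on Days 0, 8 and 16. Between Days 16 and 0 the 5 markers had log2 fold changes of 0.14 (miR-15a) to 0.76 (miR-486). With the level of miR-486 as a covariate, the log2 fold changes between Days 16 and 0 were 0.14 for miR-106b, 0.06 for miR-93 and −0.08 for miR-25. Over the same libraries, with day means removed, Pearson's r of these members with miR-486 was 0.88 to 0.96. This fit therefore cannot separate their change from that of miR-486. The part of red blood cells in these values was not tested.

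miR-17-5p had medians of 216, 274 and 208 RPMM on Days 0, 8 and 16 and had a greater Day 8 than Day 0 value in 6 of 8 heifers (0.27 ± 0.16 SE, adjusted p = 0.390, edgeR), and without heifer 22 its log2 fold change was 0.16 and without heifer 35 it was 0.17. miR-20a had medians of 106, 125 and 108 RPMM and was higher on Day 8 in 6 of 8 (0.20 ± 0.16 SE, adjusted p = 0.557, edgeR), and without heifer 16, 18, 22 or 35 it had 0.12 to 0.13. miR-19a and miR-19b were also higher on Day 8 by RPMM in 6 of 8, with log2 fold changes of 0.11 ± 0.16 SE and 0.01 ± 0.13 SE (adjusted p = 0.786 and 0.972 by edgeR). The value of miR-19a ran from 0.021 without heifer 22 to 0.25 without heifer 21. The summed levels of other blood cell markers had their highest median on Day 8 too. The 5 platelet markers (miR-191, miR-223, miR-126-3p, miR-126-5p and miR-24-3p) had medians of 31989, 43505 and 32584 RPMM on Days 0, 8 and 16. The 6 leukocyte markers (miR-142-5p, miR-142-3p, miR-150, miR-146a, miR-155 and miR-342) had 29590, 33205 and 26524 RPMM. Single markers did not all go that way. Between Days 8 and 0, miR-126-5p, miR-24-3p, miR-150 and miR-342 had log2 fold changes of −0.05, −0.16, −0.03 and −0.13. The others had 0.13 (miR-142-5p) to 0.37 (miR-142-3p). The ranges of the days overlapped, from 18370 to 68328, 20726 to 57282 and 30922 to 44218 RPMM for platelet and from 17425 to 41291, 20324 to 42453 and 20828 to 43380 RPMM for leukocyte markers, and none of these markers was at 0. Liver and gut markers also had their highest summed median on Day 8 (35173, 39894 and 29362 RPMM on Days 0, 8 and 16). This order of the days was therefore not particular to blood cell markers. Over all tested miRNAs, limma on log2(RPMM + 1) had a median log2 fold change of 0.087 for Days 8 against 0. For Days 16 against 8 it was −0.17. The part of the platelet and leukocyte markers in the values of miR-17-92 was not tested.

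Heifer 21 ran against the others in the miR-19 pair. Between Days 0 and 8 her RPMM of miR-19a went from 228 to 87.4 and that of miR-19b from 718 to 328. In the other 7 heifers miR-19a was lower on Day 8 only in heifer 20 and miR-19b only in heifer 16. Without heifer 21 the log2 fold change of miR-19a between Days 8 and 0 was 0.25 (adjusted p = 0.190, edgeR). Since miR-19a and miR-19b may share reads, their counts were also summed: the sum had log2 fold changes of −0.0038, 0.11 and 0.11 for Days 8 against 0, 16 against 0 and 16 against 8, with adjusted p of 0.680 or more by edgeR.

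miR-92a had nearly equal day means, 25220 ± 8585, 24806 ± 4170 and 25305 ± 5268 RPMM (SD, n = 8), but was scattered on Day 0. Its Day 0 values were 18983, 11157, 37357, 22014, 28963, 28372, 34079 and 20832 RPMM in heifers 16, 18, 20, 21, 22, 25, 34 and 35. The lowest and the highest of all 24 libraries thus both fell on Day 0, in heifers 18 and 20. The log2 fold changes of miR-92a were −0.02 ± 0.25, 0.17 ± 0.25 and 0.19 ± 0.25 SE for Days 8 against 0, 16 against 0 and 16 against 8, and its intervals were the widest of the members in each comparison. Single heifers moved these values: Day 16 against Day 0 had 0.33 without heifer 20 and −0.012 without heifer 21, and Day 16 against Day 8 had 0.40 without heifer 16 and 0.076 without heifer 21.

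**Figure D3:**
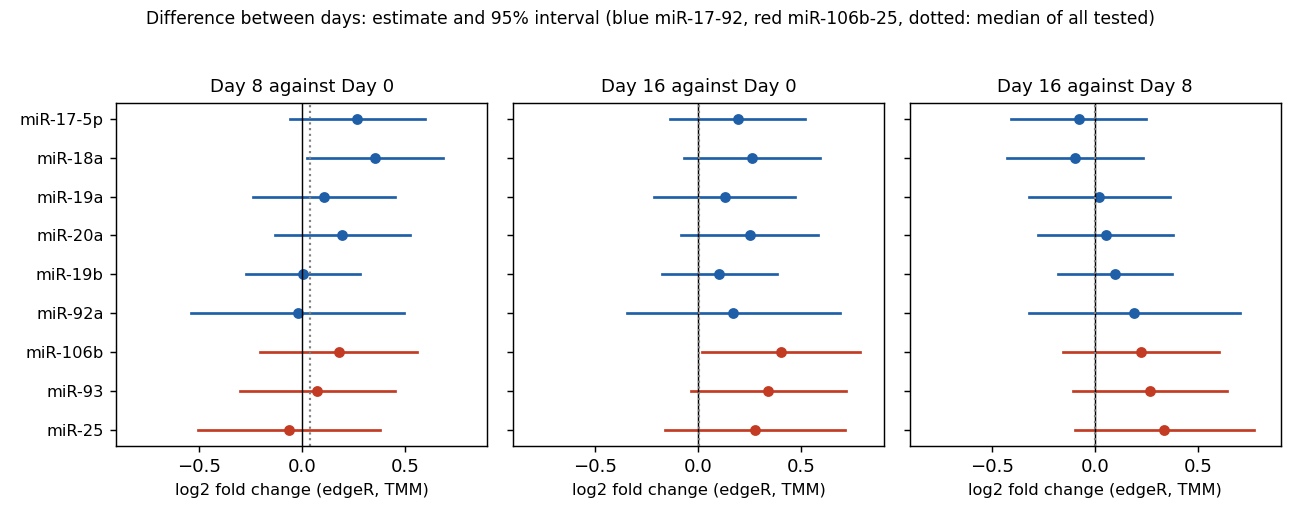
Log2 fold change between days for each member, as points with 95% intervals from edgeR on TMM-scaled counts, in blue for miR-17-92 and in red for miR-106b-25, with a dotted line at the median of all 181 tested miRNAs. The intervals of miR-18a between Days 8 and 0 and of miR-106b between Days 16 and 0 leave out 0 before adjustment, and every interval lies between −0.54 and 0.78.

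A p that misses the threshold does not show equal levels, and the intervals give what differences these data allow. The 95% intervals of the members ran from 0.69-fold to 1.61-fold for Day 8 against Day 0, from 0.787-fold to 1.72-fold for Day 16 against Day 0 and from 0.744-fold to 1.71-fold for Day 16 against Day 8. By direction, 7 of 9 members lay above 0 between Days 8 and 0 (57.5% of all tested miRNAs), 9 of 9 between Days 16 and 0 (50.3%) and 7 of 9 between Days 16 and 8 (50.3%). These directions depend on the scaling: with counts scaled by library totals the numbers were 6, 6 and 4 of 9, with miR-19a, miR-19b and miR-92a below 0 between Days 16 and 0. That scaling moved the median of all tested miRNAs by −0.19 between Days 16 and 0 and by −0.17 between Days 16 and 8. The median log2 fold change of the members was 0.11, 0.25 and 0.10 for Days 8 against 0, 16 against 0 and 16 against 8, beside 0.04, 0.00 and 0.00 over all tested miRNAs. The miR-17-92 members had medians of 0.15, 0.18 and 0.04, and the miR-106b-25 members 0.07, 0.34 and 0.27. The comparisons share libraries, so these values are not independent of each other.

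Most of the spread of a member lay outside the effect of day. On the log2 TMM scale, day took 3.25% (miR-19a) to 22.2% (miR-18a) of a member's variance, as a share of the sum of squares. The heifer took 18.9% (miR-92a) to 45.5% (miR-19b). The medians over all tested miRNAs were 8.05% and 41.8%. These shares are not corrected for the number of days and heifers, so random scatter alone gives each of them some share. In miR-92a, 77.1% of the variance was left over by both. The SD over 24 libraries was 0.27 for miR-19b, the steadiest member, and 0.48 for miR-25, the most variable, with 0.39 as the median of all tested miRNAs.

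The members did not vary as 1 group. Pearson's r of log2 TMM-normalized CPM was taken over the 24 libraries after the mean of each day was removed. It is a description, because the 3 libraries of a heifer are not independent and because a library's scaling enters all its values. Over all pairs of tested miRNAs the median r was 0.00. The 3 pairs within miR-106b-25 had r of 0.92 to 0.96, the highest for miR-106b with miR-93. The 15 pairs within miR-17-92 ran from 0.07 to 0.90 with a median of 0.37, and the 18 pairs between the clusters from 0.02 to 0.62 with a median of 0.21. With the mean of each heifer removed as well, the medians were 0.92 within miR-106b-25, 0.50 within miR-17-92 and 0.33 between the clusters.

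Within miR-17-92 the pairs with high r formed smaller sets. miR-17-5p, miR-18a and miR-20a had r of 0.71 to 0.82 with each other. miR-19a and miR-19b, the pair that differs at 1 base, had r = 0.90 with each other and 0.14 to 0.39 with those 3. miR-92a had 0.10 to 0.44 with miR-17-5p, miR-18a and miR-20a and 0.07 and 0.13 with the miR-19 pair, but 0.47, 0.62 and 0.62 with miR-106b, miR-93 and miR-25. Between the clusters, miR-17-5p had r = 0.18 with miR-106b and 0.30 with miR-93, which carry its seed, and miR-20a had 0.19 and 0.26. With heifer means removed as well, the r of these pairs was higher, at 0.46 and 0.56 for miR-17-5p and 0.62 and 0.69 for miR-20a. Likewise miR-92a then had 0.77, 0.85 and 0.86 with miR-106b, miR-93 and miR-25, but 0.15 to 0.46 with miR-17-5p, miR-18a and miR-20a. The pairs among miR-17-5p, miR-18a and miR-20a had 0.81 to 0.85, and miR-19a with miR-19b 0.89. Between these sets r was higher too, from 0.31 (miR-20a with miR-19b) to 0.67 (miR-17-5p with miR-19a). The sets were thus less far apart than with day means alone removed.

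**Figure D4:**
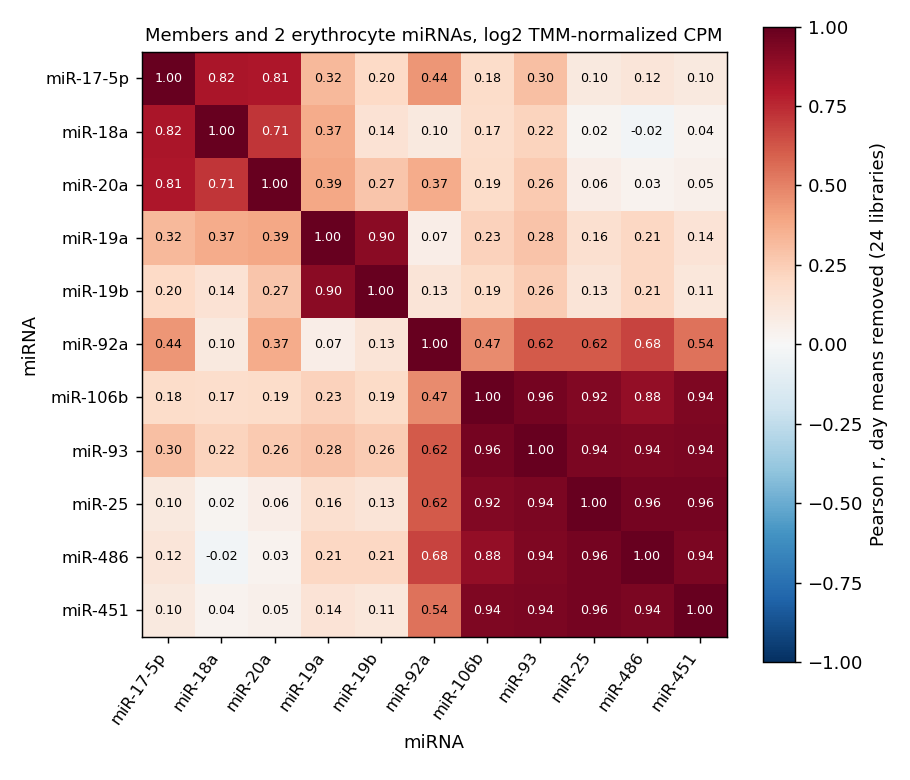
Pearson's r between the 9 members and the erythrocyte miRNAs miR-486 and miR-451, over 24 libraries with day means removed, in red for positive and blue for negative values. The block of miR-106b, miR-93 and miR-25 extends to miR-486 and miR-451 with r of 0.88 to 0.96, while miR-17-5p, miR-18a and miR-20a form a block of 0.71 to 0.82 whose r with miR-486 lies between −0.02 and 0.12.

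The scale changed these values, and RPMM was tried as another scale after the data had been seen. On log2(RPMM + 1) the median r was 0.91 within miR-106b-25, 0.62 within miR-17-92 and 0.34 between the clusters, beside 0.25 over all pairs of tested miRNAs. The set of miR-17-5p, miR-18a and miR-20a and the miR-19 pair could still be told apart. Here r was 0.86 to 0.92 among miR-17-5p, miR-18a and miR-20a, 0.95 between miR-19a and miR-19b, and 0.57 to 0.68 between these sets. The contrast for miR-92a was weaker on this scale. It had r of 0.31 to 0.45 with miR-106b, miR-93 and miR-25 and 0.15 to 0.41 with miR-17-5p, miR-18a and miR-20a, ranges that overlap.

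For each member the miRNAs with the highest r among all 181 tested were listed, as those most like it in pattern over the 24 libraries. For miR-25 they were miR-486 (0.96) and miR-451 (0.96), both abundant in red blood cells, before its cluster partner miR-93 (0.94). For miR-106b and for miR-93 the top 3 were the other cluster members and miR-451 (0.92 to 0.96). For miR-92a they were miR-92b (0.79), which has its seed and another locus, miR-16a (0.77) and miR-16b (0.75). For miR-17-5p and miR-18a they were each other and miR-20a, and then miR-425-5p (0.77) and miR-421 (0.67). For miR-20a they were let-7g (0.82), miR-17-5p (0.81) and miR-16a (0.72). miR-19a and miR-19b had each other first and then miR-301a (0.75 and 0.70).

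Each member was also compared with miR-486 within each day, where the 8 libraries come from 8 heifers. These are the same libraries as in the correlations above, so the p-values describe each day's relation and are no independent support for the pattern already seen. miR-486 ranged from 31911 to 359043 RPMM over the 24 libraries and took 6.07% to 45.1% of a library's miRNA counts. The 27 relations (9 members on 3 days) were tested on log2 TMM-normalized CPM by two-sided exact permutation of the pairings, with Benjamini-Hochberg adjustment over the 27.

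miR-25 had r = 0.98 on Day 0, 0.95 on Day 8 and 0.97 on Day 16 (adjusted exact p = 0.0027 each, n = 8), with Spearman's rho of 0.98, 0.88 and 0.90 (adjusted exact p = 0.0054, 0.024 and 0.024). Without the 2 libraries farthest from the median of miR-486, r was 0.94, 0.86 and 0.94. On this scale r stayed high without those libraries, but on RPMM r without them was 0.92 on Day 0, 0.41 on Day 8 and 0.42 on Day 16.

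miR-93 had r = 0.96, 0.95 and 0.91 (adjusted exact p = 0.0027, 0.0027 and 0.0062, n = 8), with rho of 0.95, 0.95 and 0.88 (adjusted exact p = 0.0077, 0.0077 and 0.024), and 0.87, 0.90 and 0.84 without the 2 farthest libraries. miR-106b had r = 0.96, 0.83 and 0.82 (adjusted exact p = 0.0027, 0.020 and 0.035, n = 8), with rho of 0.98, 0.81 and 0.76 (adjusted exact p = 0.0054, 0.059 and 0.090), and 0.91, 0.76 and 0.62 without the 2 farthest. On the TMM scale all 3 members of miR-106b-25 were thus higher where miR-486 was higher, on each day, although by rank the relation of miR-106b passed 0.05 only on Day 0.

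miR-92a had r = 0.59, 0.75 and 0.76 (adjusted exact p = 0.24, 0.017 and 0.0501, n = 8), with rho of 0.67, 0.83 and 0.88 (adjusted exact p = 0.17, 0.046 and 0.024), and 0.38, 0.66 and 0.92 without the 2 farthest. Its lowest library was that of heifer 18 on Day 0, at 11157 RPMM beside a miR-486 level near the middle of that day. Of the other 15 relations, those of miR-17-5p, miR-18a, miR-19a, miR-20a and miR-19b, none passed 0.05 after adjustment, and r ran from −0.79 (miR-18a on Day 8, adjusted exact p = 0.0501, rho −0.69 with adjusted exact p = 0.16, r = −0.78 without the 2 farthest) to 0.53. The difference between members in these relations was not tested.

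**Figure D5:**
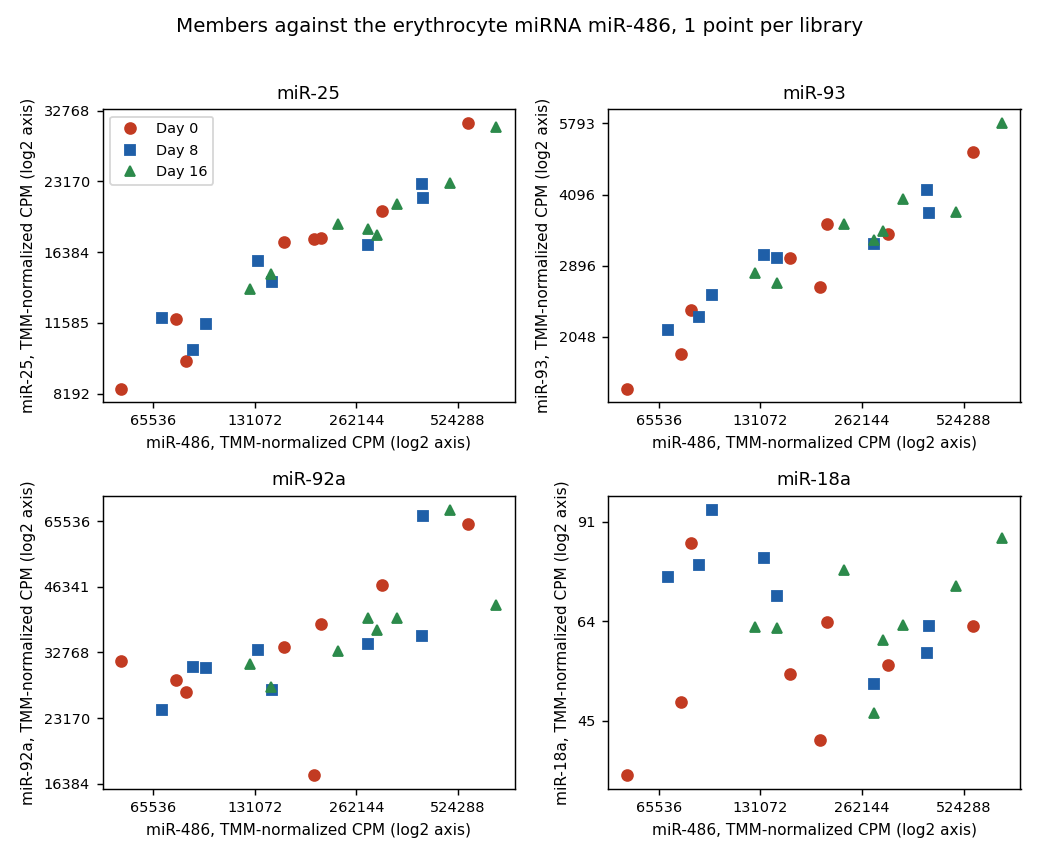
TMM-normalized CPM of miR-25, miR-93, miR-92a and miR-18a against that of miR-486, on log2 axes, with 1 point for each of the 24 libraries and colour and shape by day. miR-25 and miR-93 lie along a rising band on each day (r of 0.91 to 0.98), miR-92a more loosely (0.59 to 0.76), and miR-18a has no common direction over the days.

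The scale matters here as well. On RPMM, whose denominator holds the reads of miR-486 itself, the relation passed 0.05 on Day 0 for miR-25 (r = 0.96, adjusted exact p = 0.0094), miR-93 (0.91, adjusted exact p = 0.016) and miR-106b (0.93, adjusted exact p = 0.012). It did not pass on Days 8 and 16, with r of 0.72 and 0.84 for miR-25, 0.46 and 0.70 for miR-93 and 0.26 and 0.55 for miR-106b (n = 8 each, adjusted exact p of 0.0616 or more). Without the 2 farthest libraries the RPMM relation turned negative on Day 8 for miR-106b (−0.64) and miR-93 (−0.35), and on Day 16 it was 0.10 and 0.29. On CPM computed without miR-486, 8 of these 9 relations passed by Pearson's r, and miR-106b on Day 16 did not (r = 0.78, adjusted exact p = 0.0617, n = 8). By Spearman's rho 5 of the 9 passed, and those of all 3 members on Day 16 and of miR-106b on Day 8 did not (adjusted exact p of 0.059 to 0.11). How far release from red blood cells accounts for the levels of these members was not tested.

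Ratios of counts within a library do not depend on how the library is scaled, and 5 of them were followed. The ratio of miR-93 to miR-25 was 0.149 in the lowest library, 0.189 at the median and 0.242 in the highest, with a log2 SD of 0.16 over 24 libraries. That of miR-19b to miR-19a was 2.81, 3.45 and 4.56, with a log2 SD of 0.15. Both varied less than any single member did on the TMM scale (0.27 to 0.48). Both ratios between the clusters were wider, although each pair has the same seed. miR-92a to miR-25 ran from 0.978 through a median of 2.11 to 3.74 (log2 SD 0.41). miR-17-5p to miR-106b ran from 0.261 through 0.448 to 1.03 (log2 SD 0.48). The ratio of miR-17-5p to miR-17-3p, the other arm of its hairpin, had a log2 SD of 0.36. The narrow ratios are of pairs with high r (0.94 and 0.90). Other pairs within miR-17-92 were not followed, so clusters are not compared in general.

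Heifer 18 was lowest in both ratios between the clusters. miR-92a to miR-25 was lowest in heifer 18 on each day, and highest in heifer 16 on Days 0 and 8 and in heifer 21 on Day 16. miR-17-5p to miR-106b was likewise lowest in heifer 18 on each of the 3 days, and highest in heifers 21, 22 and 35 on Days 0, 8 and 16. In the 15 comparisons between days none of the 5 ratios had an adjusted p under 0.1 (exact sign-change test), which does not show equal ratios. The smallest p was that of miR-17-5p to miR-106b between Days 16 and 8, lower on Day 16 in 7 of 8 heifers with a log2 difference of −0.32 ± 0.40 (SD; exact sign-change p = 0.0703, adjusted p = 0.645).

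The other arm of the miR-17 hairpin, miR-17-3p, had 14.6 to 53.2 RPMM and was below the limit for testing. Per library, miR-17-5p had 3.90 times its count in the lowest, 8.06 at the median and 13.6 in the highest. The other arm of miR-18a, listed as the human hsa-miR-18a-3p, had a count of 0 in 22 of 24 libraries and 1 in each of the others.

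The related list holds 7 further miRNAs of the same families, hairpins or of the related cluster on the X chromosome. miR-106a, miR-20b and miR-18b of that cluster were near the floor, with 1.16 to 7.96, 0 to 4.38 and 0.30 to 2.80 RPMM (5 to 34, 0 to 24 and 1 to 12 counts). Their counterparts miR-17-5p, miR-20a and miR-18a had medians of 218, 111 and 41.3 RPMM. The sequences of miR-106a, miR-20b and miR-18b were not compared with those of the counterparts. Whether reads pass between them was therefore not tested, and these levels are uncertain to that extent. miR-363, the member of that cluster in the miR-92a family, had 10.25 to 40.97 RPMM, and these miRNAs were all below the limit for testing.

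Of the 7, only miR-92b and miR-32, which lie outside these clusters, were tested. miR-92b, which holds the seed of miR-92a, had 463 to 1383 RPMM, with log2 fold changes of −0.21 ± 0.22, 0.07 ± 0.21 and 0.28 ± 0.21 SE for Days 8 against 0, 16 against 0 and 16 against 8. miR-32 had 125 to 438 RPMM, with 0.04 ± 0.17, 0.14 ± 0.17 and 0.10 ± 0.17 SE. Neither passed the threshold in any comparison (adjusted p of 0.645 or more for miR-92b and 0.705 or more for miR-32, edgeR).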

How the data were processed

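RNA of 24 plasma samples (8 heifers, 3 days, taken from the sample labels) was sequenced as TruSeq small-RNA libraries (single-end reads, Illumina HiSeq). The authors used sRNAbench, with Bowtie 0.12.9 as its aligner, to match reads with at most 1 mismatch to mature miRNAs of cattle and human in miRBase, and deposited raw counts per miRNA and library. They also deposited RPMM, an RPM value relative to the genome-mapped reads of a library. A mismatch lets near-identical members share reads, and a library dominated by miR-486 lowers the RPMM of the rest. Libraries held 1299679 to 4700764 counts, and 0 columns were left unused.

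miRNAs above 25 RPMM in at least 6 of 8 libraries of each day were tested, in 1 fit of all libraries with day and heifer, by edgeR 4.0.16 in R 4.3.3 (TMM, quasi-likelihood, threshold 0.1 on the adjusted p). The SE is the log2 fold change divided by the square root of F. The heifer block follows the repeated measures of the study: deviations from day means had a median r of 0.338 over 24 pairs of libraries of the same heifer and −0.0861 over 252 pairs of other heifers. Extraction and sequencing batches are not given in the sources used here and were not tested. The procedure was tested on simulated data. Levels, ratios and relations were tested by exact permutation in Python 3.11.15 (numpy 2.4.6, pandas 2.3.3), and figures used matplotlib 3.10.9.

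Alternatives were DESeq2 1.42.0, limma 3.58.1 on log2(RPMM + 1) and log2(RPMM + 0.1), a repeated-measures test, other scalings and limits, no block, miR-486 as a covariate, miR-19a and miR-19b summed, and each heifer left out. The 9 members and all lists were chosen with earlier results of these data known. Named were the 9 members, 7 related miRNAs and other arms, miRNAs sharing a seed, and for each member the 3 with the highest r. Cell-type marker lists were erythrocyte (given in the report), platelet and leukocyte (values in the report), and liver and gut, with summed medians of 35173, 39894 and 29362 RPMM on Days 0, 8 and 16. None of these markers was at 0 in any library.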

Additional observations from a re-analysis of the deposited data

Results flagged for a closer look

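Single libraries were looked for that stood apart from the other 7 of their day, by Dixon's criterion for the gap to the nearest library, in 42 groups, made of 9 members and 5 ratios on 3 days. Chance alone marks about 1 in 20 such groups. The criterion was met by miR-18a on Day 16, where heifer 34 had 60.0 RPMM as the highest value (the gap was 0.573 of the range), and by the ratio of miR-19b to miR-19a on Day 0, which was highest in heifer 16 at 4.56 (0.617 of the range).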

How the results depend on the processing

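No member was called in any comparison under any of the 20 alternatives, so what follows concerns directions near 0 and counts over all miRNAs. Counts scaled by library totals put miR-19b between Days 8 and 0 at −0.022 (log2), miR-19a, miR-19b and miR-92a between Days 16 and 0 at −0.066, −0.094 and −0.0093, and miR-19a, miR-20a and miR-19b between Days 16 and 8 at −0.14, −0.12 and −0.072. Totals without miR-486 put miR-19b between Days 8 and 0 at −0.026. On log2(RPMM + 1) and log2(RPMM + 0.1), in limma and in the repeated-measures test alike, miR-92a and miR-25 had 0.045 and 0.0020 between Days 8 and 0, miR-19b −0.024 between Days 16 and 0, and miR-19a, miR-20a and miR-19b −0.12, −0.13 and −0.057 between Days 16 and 8. Without a limit on low counts miR-92a had 0.0026 between Days 8 and 0 and miR-19a −0.021 between Days 16 and 8, and with edgeR's filterByExpr miR-19b had −0.0019 between Days 8 and 0. With miR-486 as a covariate miR-92a and miR-25 had −0.25 and −0.081 between Days 16 and 0, and miR-19a, miR-20a, miR-92a, miR-106b, miR-93 and miR-25 had −0.018, −0.044, −0.22, −0.035, −0.0077 and −0.014 between Days 16 and 8. Without the replicate block (no pairing by heifer) miR-19a had −0.0027 between Days 16 and 8, and 0 members and 2, 0 and 0 of all tested miRNAs were called for Days 8 against 0, 16 against 0 and 16 against 8.

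Leaving out each heifer in turn, the log2 fold changes between Days 8 and 0 ran from −0.081 to 0.10 for miR-19b, −0.21 to 0.11 for miR-92a, −0.10 to 0.18 for miR-93 and −0.28 to 0.055 for miR-25. That of miR-92a between Days 16 and 0 ran from −0.012 to 0.33, and those between Days 16 and 8 from −0.13 to 0.017 for miR-17-5p, −0.17 to 0.056 for miR-18a and −0.059 to 0.12 for miR-19a. The other fold changes of members kept their sign, but several moved by over 1.5 times with 1 heifer left out. Between Days 8 and 0 these ran from 0.16 to 0.35 for miR-17-5p, 0.021 to 0.25 for miR-19a, 0.12 to 0.29 for miR-20a and 0.029 to 0.29 for miR-106b. Between Days 16 and 0 they ran from 0.089 to 0.30 for miR-17-5p, 0.17 to 0.33 for miR-18a, 0.084 to 0.19 for miR-19a, 0.13 to 0.37 for miR-20a and 0.15 to 0.44 for miR-25. Between Days 16 and 8 they ran from 0.011 to 0.12 for miR-20a, 0.028 to 0.18 for miR-19b, 0.076 to 0.40 for miR-92a and 0.31 to 0.51 for miR-25. The log2 level difference of miR-19b and miR-106b ran from 0.18 to 0.32. Among the ratios, the log2 differences that changed sign ran from −0.048 to 0.10 (miR-92a to miR-25, Days 8 against 0), −0.013 to 0.25 (miR-17-5p to miR-106b, Days 8 against 0), −0.10 to 0.025 (miR-17-5p to miR-17-3p, Days 16 against 8) and −0.065 to 0.00055 (miR-19b to miR-19a, Days 16 against 0). On RPMM, r with miR-486 was −0.20, −0.14, −0.16, −0.45 and −0.38 on Day 16 for miR-17-5p, miR-18a, miR-19a, miR-20a and miR-19b, −0.33 on Day 8 for miR-19b and 0.26 on Day 8 for miR-92a. It was 0.26 and 0.55 on Days 8 and 16 for miR-106b, 0.46 and 0.70 for miR-93 and 0.72 and 0.84 for miR-25, and on CPM without miR-486 it was 0.78 for miR-106b on Day 16.

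The count of all miRNAs called between Days 8 and 0 was 2. It was 8 with RLE scaling, 8 with miR-486 as a covariate, 9 with miR-19a and miR-19b summed, 5 with filterByExpr, 15 in DESeq2, 1 without a limit, 0 with library totals, 0 in each limma fit and 0 in the repeated-measures test. It ran from 0 to 33 with a heifer left out: 33 without heifer 21, 7 without heifer 18 and 0 without heifer 16, 22, 25, 34 or 35. Between Days 16 and 0 it was 0, and 3 without a limit, 1 with filterByExpr, 4 in the repeated-measures test, 3 in DESeq2 and 0 to 3 with a heifer left out (3 without heifer 21). For any effect of day it was 0, and 3 without a limit, 2 with filterByExpr, 8 in DESeq2 and 0 to 13 with a heifer left out (13 without heifer 21). The cause was not tested. Depth limits miR-18a most, and the related miRNAs under the limit were not tested.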
